A study of Rattus norvegicus with 8 samples.

Results

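The genes described here are brain apolipoproteins, the receptors that take lipoprotein particles up, the exporters that load them with lipid, and a chaperone of the receptors. The list named 10 genes: Apoe, Clu, Apod, Lrp1, Lrp8, Vldlr, Sorl1, Abca1, Abca7 and Lrpap1. Of these, 9 were found by their symbol among the 26405 genes of each table. Lrp8 had no symbol there and was matched through its Entrez identifier in RefSeq, which brought the number to 10. RNA was sequenced from rat embryonic hippocampal neurons kept for 10 to 14 days in microfluidic chambers, in which axons grow into a compartment of their own. Axons alone received soluble oligomeric amyloid peptide, Abeta(1-42), or else vehicle for 24 h, and RNA of the axonal compartment and of the compartment with cell bodies and neurites was profiled separately. The 8 samples form 4 groups of 2: axons with Abeta, axons with vehicle control, soma with Abeta and soma with vehicle control. The labels name no strain, genotype or sex, and they leave unsaid whether the 2 samples of a group are separate cultures. The spread behind each p-value may thus be technical.

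Neurons and glia of the brain exchange cholesterol and phospholipid on particles that resemble high density lipoprotein. Apoe and Clu are the main protein components of these particles, both secreted largely by astrocytes, and both bind Abeta. Abca1 moves lipid onto Apoe, and receptors of the low density lipoprotein receptor family, such as Lrp1, take the particles up into neurons. Lrp1 also carries Abeta into cells, and Sorl1 sorts the amyloid precursor protein away from the endosomes in which Abeta is made. Variants of APOE, CLU, SORL1 and ABCA7 are known risk factors for Alzheimer disease in humans.

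Promoter windows are shown for the receptor Lrp1, which was called in axons, and for its chaperone Lrpap1 and the exporter Abca1, whose axonal values are described in full below but could not be called. Each window runs from 250 bases before the annotated start to 50 after it, on the strand of the gene, and comes from RefSeq (build GRCr8). Capitals mark every match, on either strand, to one of the following short motifs. They are the GC box, spelled GGGCGG, the E-box, spelled CACGTG, the TATA box, spelled TATAAA, and the CCAAT box, spelled as its name. The cAMP response element, spelled TGACGTCA, was searched as well and had no match in these windows.
Lrp1, chr7:65346147-65346446, minus strand: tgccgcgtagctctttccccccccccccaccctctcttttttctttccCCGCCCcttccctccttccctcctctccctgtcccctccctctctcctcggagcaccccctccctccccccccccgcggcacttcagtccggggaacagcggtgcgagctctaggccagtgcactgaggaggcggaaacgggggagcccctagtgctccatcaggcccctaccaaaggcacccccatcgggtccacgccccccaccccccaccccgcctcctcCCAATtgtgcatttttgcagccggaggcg
Lrpap1, chr14:79875752-79876051, plus strand: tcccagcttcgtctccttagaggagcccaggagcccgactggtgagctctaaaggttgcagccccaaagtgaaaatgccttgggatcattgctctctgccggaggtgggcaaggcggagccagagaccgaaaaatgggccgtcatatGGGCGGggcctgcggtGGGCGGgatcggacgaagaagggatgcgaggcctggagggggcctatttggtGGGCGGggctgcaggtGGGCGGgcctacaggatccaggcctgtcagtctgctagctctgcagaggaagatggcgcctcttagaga
Abca1, chr5:72596424-72596723, minus strand: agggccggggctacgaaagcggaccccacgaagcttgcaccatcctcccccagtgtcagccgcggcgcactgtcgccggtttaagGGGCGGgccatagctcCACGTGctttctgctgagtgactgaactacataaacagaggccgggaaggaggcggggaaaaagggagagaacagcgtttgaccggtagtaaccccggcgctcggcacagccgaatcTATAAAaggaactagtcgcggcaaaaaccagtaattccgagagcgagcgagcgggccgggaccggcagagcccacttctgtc
The Lrp1 window held 1 GC box and 1 CCAAT box, and the Lrpap1 window held 4 GC boxes and none of the other motifs. The Abca1 window held an E-box at -149, a GC box at -165 and a TATA box at -32, each counted from the annotated start. Over 33469 promoter windows of the same length, 33.1% held a GC box, 37.5% a CCAAT box, 14.2% a TATA box, 6.42% an E-box and 1.83% a cAMP response element. Of the 10 genes, 8 were found in the RefSeq promoter table, all but Clu and Lrp8. These matches are letters in a window, and binding was not measured.

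The tables compare the treatments within a compartment without naming the numerator, so every sign below is as deposited. A gene lies on the positive side where its log2 fold change is above 0, and which side is Abeta and which is vehicle is not known. Nor is it known whether the positive side is the same treatment in both compartments. The reads of single libraries were recovered from the digits of the deposited means, and a library is named by its side and a number, 1 for the deeper one. The recovered genes held 231854 to 425420 reads in each axonal library and 263117 to 3661638 in each somatic library. In soma, library 2 of each side was shallow, with size factors of 0.297 and 0.320 against 2.97 and 3.74. All 13 neuron markers found had a mean of at least 10 in both compartments, and so did all 13 astrocyte markers found, so RNA of other cells was present beside that of the labelled neurons. In bulk RNA, fewer cells of a type and less RNA per cell cannot be told apart.

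Clusterin (Clu, ENSRNOG00000016460), a secreted chaperone of lipid particles that also restrains complement, was the apolipoprotein with the larger axonal signal of treatment. The positive-side axonal libraries held 368 and 348 normalized counts of Clu, and libraries 1 and 2 of the negative side held 52.5 and 172. Both positive libraries lay above both negative ones, and the negative pair differed by 3.27-fold between themselves. The authors' deposited table (DESeq2) puts Clu at a 2.99-fold difference, 1.58 on the log2 scale (SE 0.51, adjusted p = 0.0138, n = 2 per side). Of the 1321 axonal genes with an adjusted p, 23.0% were called in either direction and 8.78% on the positive side. The log2 ratio of the recovered sides was 1.67. It was 1.06 without library 1 of the negative side and 2.75 without library 2 of that side, so the size of the Clu difference rests on which of these is used.

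Apolipoprotein E (Apoe, ENSRNOG00000018454), the main lipid carrier made by astrocytes, gave no such separation. Its axonal libraries held 492 and 272 normalized counts on the positive side, against 140 and 693 on the negative side. The lowest and the highest value both belonged to the negative side, a 4.96-fold spread within 1 treatment. Its log2 fold change in the authors' deposited table was -0.11 (SE 0.56, 95% interval -1.22 to 0.99, adjusted p = 0.903, DESeq2), an interval that holds differences of about 2-fold in both directions. Without library 2 of the negative side the log2 ratio of the recovered sides went from -0.12 to 1.45. Apolipoprotein D (Apod, ENSRNOG00000048273), a small lipid-binding lipocalin, was close to the detection limit: the axonal libraries held 2 and 0 reads on the positive side, against 3 and 0 on the negative side. A count of 0 there allows up to 2.35 and 4.05 normalized counts, in the same order, so no difference in Apod was detectable at this depth; such limits cover counting error only.

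Markers of other cell types were summed in the same libraries. The summed level of the 13 astrocyte markers was 3699 and 4157 normalized counts on the positive side, against 711 and 1185 on the negative side, and 6 of the 13 (Gfap, Vim, Aldoc, Slc1a3, Glul and Gja1) were called, all on the positive side. In this list 10 markers lay above 0 and 3 below it, Slc1a2 at -0.82, Slc4a4 at -0.77 and Fabp7 at -0.02, none of the 3 called. Gfap and Vim held 1228 and 1286 of the 3699 normalized counts in library 1 of the positive side. The 12 microglial markers summed to 96.0 and 34.4 on the positive side, against 142 and 223 on the negative side, with 0 called by DESeq2 because none had an adjusted p, and 2 with an unadjusted p under 0.05. The 13 neuron markers summed to 797 and 901 against 535 and 1144, and 0 of the 7 with an adjusted p were called by DESeq2, with 0 of the 13 under an unadjusted 0.05. The 9 fibroblast and meningeal markers summed to 1461 and 2197 against 304 and 294, and 4 of them (Col1a1, Col1a2, Fbln1 and Sparc) were called, all on the positive side. Those 4 carried the sum: the other 5 (Col3a1, Dcn, Lum, Pdgfrb and Igf2) had log2 fold changes between -1.25 and -0.05, none of them called. Markers of oligodendrocytes (10 genes), of endothelial and mural cells (8) and of choroid plexus and ependyma (7) had no adjusted p, and summed to at most 130 normalized counts in any axonal library. No marker of these 7 lists was at 0 in the axonal table as a whole. Gfap, Vim and Sparc, which make up much of these sums, had axonal means between 500 and 1000, where 4 of 39 shifted decoy values (10.3%) also had a solution, so their recovered counts are less certain than those of lower means. Clu had its 2 high and 2 low libraries where the astrocyte sum did, whereas Apoe was highest in library 2 of the negative side, which also had the highest microglial and neuronal sums. Apoe was lowest (140) in library 1 of that side, as was the neuronal sum (535). The microglial sum there (142) was above both positive-side sums, so Apoe did not follow it across the libraries. The part of other cell types in the Clu and Apoe values was not tested.

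**Figure D1:**
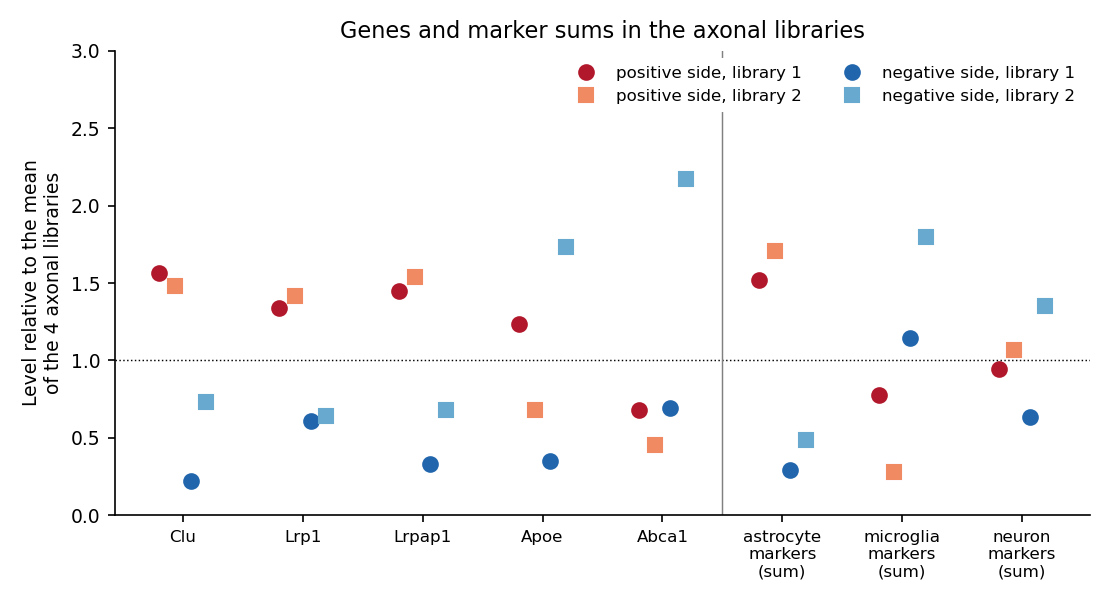
Level of 5 genes and of 3 summed marker lists in each axonal library, divided by the mean of the 4 libraries (linear axis; the dotted line is that mean, circles are library 1 and squares library 2 of a side). Clu, Lrp1, Lrpap1 and the astrocyte sum have both positive-side libraries on top, while Apoe, Abca1 and the microglial and neuronal sums are highest in library 2 of the negative side.

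Lrp1 (ENSRNOG00000025053), a large endocytic receptor for Apoe particles and Abeta, had the tightest difference in the list. Its axonal libraries held 362 and 382 normalized counts on the positive side, against 164 and 173 on the negative side. Libraries of a side differed by only 1.05-fold on the positive and 1.06-fold on the negative side, and the sides did not overlap. In the authors' deposited table Lrp1 differed by 2.15-fold, 1.10 on the log2 scale (SE 0.40, adjusted p = 0.0293, DESeq2, n = 2 per side). Leaving out any 1 library kept the log2 ratio of the recovered sides between 1.10 and 1.18, around a value of 1.14 with all 4. The astrocyte sum was higher on the same side, as were 4 of the 9 fibroblast and meningeal markers. The other 5 lay below 0, and the part of other cell types in the Lrp1 value was not tested.

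Lrpap1 (ENSRNOG00000009313), the receptor-associated protein that escorts Lrp1 and its relatives through the endoplasmic reticulum, leaned to the same side. It had 54.4 and 57.9 normalized counts on the positive side, against 12.6 and 25.7 on the negative side, without overlap. The authors' deposited table gives Lrpap1 a log2 fold change of 1.40 (SE 0.66, 95% interval 0.11 to 2.69) with an unadjusted p of 0.0333 and no adjusted p (DESeq2), so it could not be called. The same astrocyte sum and 4 of the 9 fibroblast and meningeal markers lay on its side, and the other 5 lay below 0. The part of other cell types in the Lrpap1 value was not tested. Among all 23879 axonal genes with reads, 4.45% had an unadjusted p under 0.05, but 92.6% of these genes had a lower mean than Lrpap1. The other 2 receptors had few reads and no adjusted p. Vldlr (ENSRNOG00000027491), a receptor for Apoe particles and reelin, had 27.2 and 24.3 against 18.9 and 24.3 normalized counts, with a log2 fold change of 0.22 (SE 0.72) in the authors' deposited table. That value became -0.22 when fold changes were centred on genes well expressed in soma. Lrp8 (ENSRNOG00000013064), the neuronal reelin and Apoe receptor also called ApoER2, had 13.6 and 30.5 against 21.0 and 43.2 normalized counts, and its log2 fold change was -0.46 (SE 0.73). The sides overlapped for both Vldlr and Lrp8.

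Sorl1 (ENSRNOG00000024374), the sorting receptor of the amyloid precursor protein, had 46.1 and 37.6 normalized counts on the positive side, against 46.2 and 60.8 on the negative side of the axonal comparison. The sides did not overlap, but the highest positive and the lowest negative library were almost equal. Its log2 fold change in the authors' deposited table was -0.32 (SE 0.59, adjusted p = 0.737, DESeq2).

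The lipid exporters lay on the negative side, and neither could be called because they had no adjusted p. Abca1 (ENSRNOG00000018126), which hands cholesterol and phospholipid to Apoe, had 25.7 and 17.2 normalized counts on the positive side, against 26.3 and 82.4 on the negative side. A single library, number 2 of the negative side, stood above the other 3. The log2 fold change of Abca1 in the authors' deposited table was -1.17 (SE 0.69, unadjusted p = 0.0888), and the log2 ratio of the recovered sides went from -1.30 to -0.28 without that library. The same library had the highest summed levels of microglial markers (223) and of neuron markers (1144) in axons. The part of either cell type in the Abca1 value was not tested. Abca7 (ENSRNOG00000012939), a related transporter expressed in microglia and neurons, had 31.7 and 12.5 against 34.7 and 31.1 normalized counts and a log2 fold change of -0.49 (SE 0.72), with overlapping sides.

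**Figure D2:**
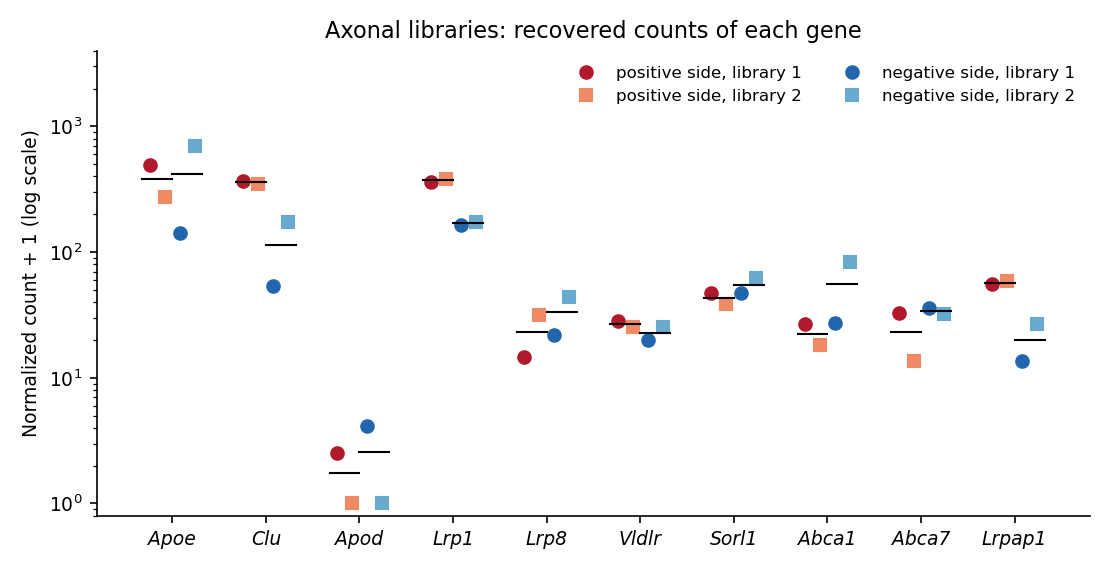
Normalized count plus 1 of each of the 10 genes in the 4 axonal libraries (log scale; reds are the positive side, blues the negative side, black bars the mean of each side). The sides are clearly apart for Clu, Lrp1 and Lrpap1, and the blue square of Abca1 stands above its other 3 libraries.

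In all, 2 of the 10 genes were called in axons, Clu and Lrp1, both on the positive side, where 8.78% of genes with an adjusted p were called (23.0% on either side). Only 4 of the 10 had an adjusted p (Apoe, Clu, Lrp1 and Sorl1), since the authors gave one to genes whose mean was 44.8 or more. By unadjusted p, 3 of the 10 were under 0.05, beside 4.45% of all axonal genes with reads. That share is not a like background: 9 of the 10 had a mean of 10 or more, as did only 8032 of those 23879 genes. Both positive libraries lay above both negative ones for 3 genes (Clu, Lrp1 and Lrpap1) and below them for 2, Sorl1 and Abca1. Sides were apart in 49.5% of the 7851 recovered axonal genes whose mean was 10 or more, 30.6% with the positive and 18.9% with the negative side higher, so 5 of 10 is near the background. The median log2 fold change of the 10 genes was -0.19, beside -0.13 over all genes with reads. The axonal median was 0.44 for genes well expressed in soma (a somatic mean of 100 or more). Relative to that shift, Clu stood at 1.14 (adjusted p = 0.107) and Lrp1 at 0.66 (adjusted p = 0.308), and neither was called. The same centring took Lrpap1 to 0.96 (unadjusted p = 0.144, from 0.0333) and Abca1 to -1.61 (unadjusted p = 0.0194, from 0.0888), both without an adjusted p. Adjustment over genes whose mean was 10 or more gave Clu an adjusted p of 0.0742 and Lrp1 one of 0.148. Over every gene with reads these were 0.212 and 0.387, all from the Wald test of DESeq2.

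**Figure D3:**
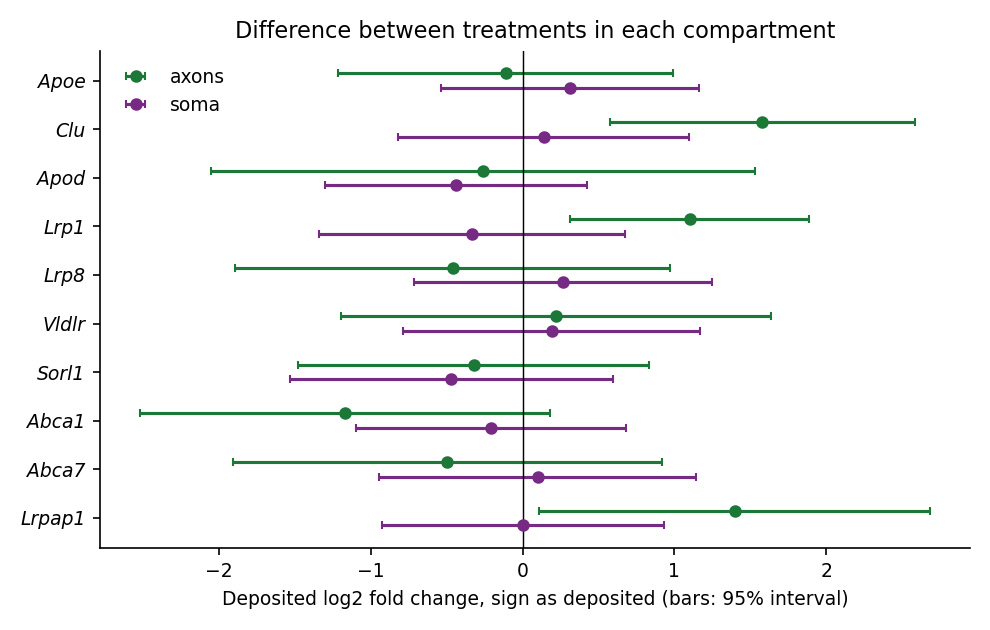
Deposited log2 fold change between treatments of each of the 10 genes (x axis, sign as deposited) with its 95% interval, in axons (green) and soma (purple). The axonal intervals of Clu, Lrp1 and Lrpap1 lie above 0, and every somatic interval spans 0. Whether the positive side is the same treatment in both compartments is not known.

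In cell bodies, after treatment of the axons alone, no difference between treatments passed the test for these genes. By DESeq2, 0 of the 10 had an adjusted p under 0.05 and 0 had an unadjusted p under 0.05, beside 0% and 0.0105% of all 18995 genes with reads. The latter share is 2 genes, far fewer than evenly spread p-values would give, so the somatic test could hardly call any gene. The lack of a call thus says little about these 10 genes. The sides overlapped for all 8 genes whose somatic reads could be recovered, where 15.7% of genes whose mean was 10 or more had sides that did not. Apoe and Clu, with means of 7967 and 1410 normalized counts, were too abundant for their somatic reads to be recovered. Their log2 fold changes in the authors' deposited table were 0.31 (SE 0.43, 95% interval -0.54 to 1.16) for Apoe and 0.14 (SE 0.49, 95% interval -0.82 to 1.10) for Clu.

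For Lrp1, Lrp8 and Sorl1, somatic values differed more between deep and shallow libraries than between the sides. Lrp1 had 331 and 333 normalized counts in the deep libraries of the positive and the negative side, and 636 and 992 in the shallow ones. The log2 ratio of its sides was -0.01 in the deep pair and -0.64 in the shallow pair, with a deposited log2 fold change of -0.33 (SE 0.51) in the authors' deposited table. For somatic means between 500 and 1000, like that of Lrp1, 9 of 146 shifted decoy values (6.16%, exact 95% binomial interval 2.86% to 11.4%) also had a solution, so these counts are less certain. Sorl1 likewise had 29.97 and 30.7 in the deep and 43.8 and 90.7 in the shallow libraries, the last of which stood above the other 3. Lrp8 had 161 and 132 normalized counts in the deep and 330 and 253 in the shallow libraries, positive side first.

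Lrpap1 and Vldlr were more even in soma, though Lrpap1 too differed more by depth than by side. Lrpap1 had 176 and 181 normalized counts in the deep and 131 and 125 in the shallow libraries, and its deposited log2 fold change was 0.0003 (SE 0.47) in the authors' deposited table. Vldlr had 68.0 and 69.2 in the deep and 77.4 and 50.05 in the shallow libraries. Of the exporters, Abca1 had 296 and 357 against 401 and 472 normalized counts, deep pair first, and was lower on the positive side at both depths (log2 ratios of -0.27 and -0.24). Abca1 was also higher in the shallow than in the deep library of each side. Abca7 had 38.7 and 27.8 in the deep and 30.3 and 37.5 in the shallow libraries, with opposite signs at the 2 depths. Apod had 2 and 25 reads in the deep and 0 in both shallow libraries, where a count of 0 allows up to 10.1 and 9.38 normalized counts.

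**Figure D4:**
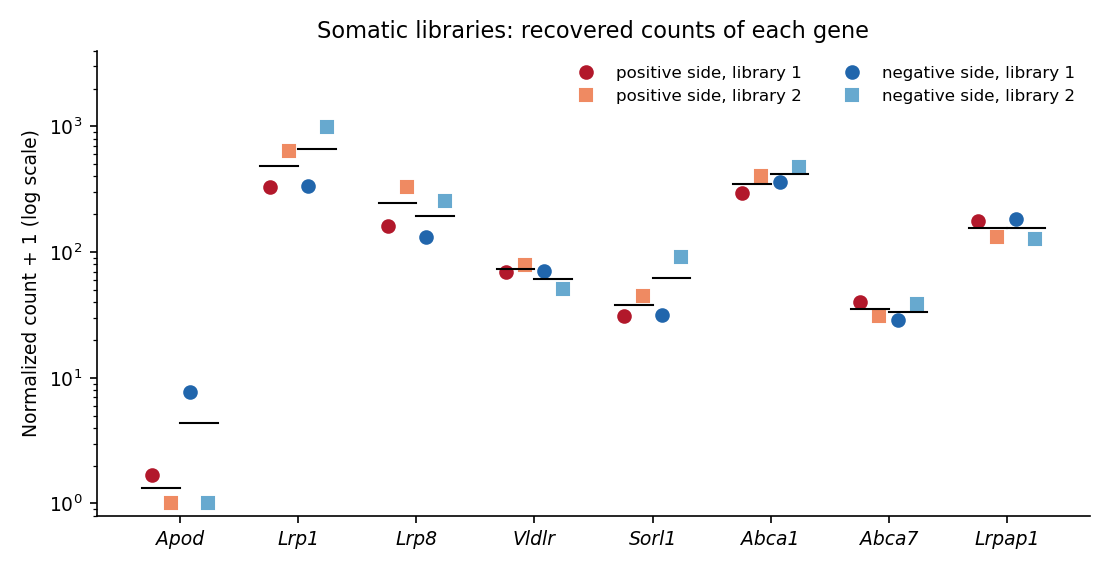
Normalized count plus 1 of the 8 genes whose reads were recovered in the 4 somatic libraries (log scale; reds are the positive side, blues the negative side, circles the deep and squares the shallow libraries, black bars the mean of each side). The sides overlap for every gene, and for Lrp1, Lrp8, Sorl1 and Abca1 the squares lie above the circles.

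The axonal and somatic differences were then set against each other. This takes the positive side to be the same treatment in both compartments, which is not known, and the values below hold only if it is. Clu had an axonal minus somatic difference in log2 fold change of 1.44 (SE 0.71, 95% interval 0.05 to 2.83, unadjusted p = 0.0418), and Lrp1 one of 1.43 (SE 0.65, 95% interval 0.16 to 2.71, unadjusted p = 0.0280). Lrpap1 followed at 1.40 (SE 0.81, unadjusted p = 0.0845), and Abca1 lay lowest at -0.97 (SE 0.82). Adjusted by Benjamini-Hochberg over 18406 genes with the normal test of the deposited values, all 10 had an adjusted p of 1.00, and 0 passed, while 0.0326% of all genes did. Unadjusted, 2 of the 10 were under 0.05, beside 2.60% of all genes, those with few reads included. An axonal call without a somatic one is therefore not shown to be a difference between the compartments for Clu or Lrp1.

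The level of a transcript was compared between compartments as its share of the summed means of its own table, since the tables were normalized separately. Apoe made up 190 ppm (parts in 1000000) in axons and 1962 in soma, a 10.3-fold lower share in axons. Only 6 of 6713 genes with a symbol and a mean of 10 or more in both tables had a lower ratio of axonal to somatic share. Abca1 was next, with 18.0 and 94.0 ppm (5.22-fold lower in axons), at the 2.06th percentile of these genes. Lrp8 followed with 12.9 and 53.9 (4.19-fold lower, percentile 5.38) and Clu with 112 and 347 (3.11-fold lower, percentile 15.8). The median gene had a log2 ratio of -0.83, with quartiles of -1.40 and -0.17. Lrpap1 (percentile 38.4), Vldlr (62.8) and Lrp1 (76.0) lay nearer the middle.

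At the other end, Sorl1 had 22.7 ppm in axons and 12.02 in soma (1.89-fold higher in axons, percentile 94.9). Abca7 had 13.1 and 8.27 (1.58-fold higher, percentile 92.5). Shares depend on a few very abundant identifiers: the top 20 held 53.1% of the axonal and 70.6% of the somatic sum. Without these 20, Sorl1 was still higher in axons (1.18-fold), whereas Abca7 had a ratio of 0.993. With all identifiers 3 of the 10 genes had a higher share in axons (Sorl1, Abca7 and Apod, the last on few reads), and 19.7% of the 6713 genes did.

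Per library, levels were taken as RPM, reads per 1000000 reads of the 15861 genes with a symbol recovered in both tables. Sorl1 stood at 185, 139, 207 and 270 in the axonal libraries (positive side first) and at 35.9, 53.6, 34.4 and 110 in the somatic ones. All 4 axonal libraries were above all 4 somatic ones for Sorl1, as for 9.16% of 6651 genes with a mean of 10 or more in both tables. Abca7 had 128, 46.2, 155 and 138 against 46.4, 37.1, 31.1 and 45.7, so that 1 axonal library lay just inside the somatic range. Abca1 had 103, 63.5, 117 and 366 in axons against 355, 490, 401 and 574 in soma, and again only library 2 of the negative side reached the somatic range. Lrp1 (733 to 1455 in axons, 373 to 1206 in soma), Lrp8 (54.7 to 192 and 148 to 404), Vldlr (84.6 to 109 and 60.9 to 94.8) and Lrpap1 (56.4 to 219 and 152 to 211) had overlapping ranges.

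**Figure D5:**
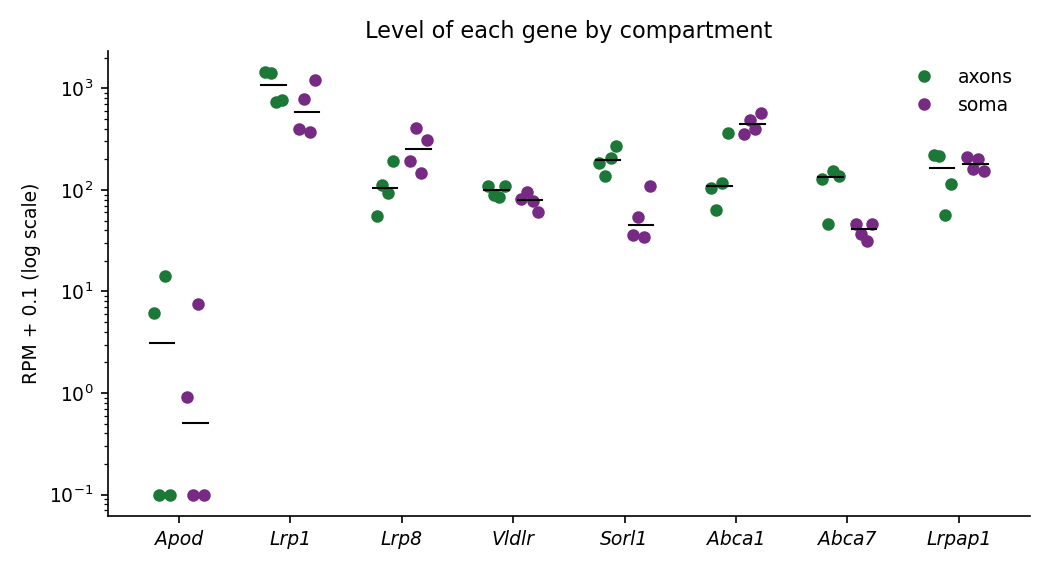
RPM plus 0.1 (log scale) of the 8 genes recovered in both tables, with 1 point per library in axons (green) and soma (purple) and black bars at the medians. Sorl1 is the gene whose axonal libraries all lie above the somatic ones, and for Abca1 1 axonal library reaches the somatic range.

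Other genes of lipoprotein handling were counted from lists that do not include these 10. Of 84 such genes measured in axons, 8 had an adjusted p and 3 were called, all on the positive side, while 8.78% of all genes with an adjusted p were called there. The 3 were Insig1, a sterol-sensing brake on cholesterol synthesis, Srebf1, a transcription factor of lipid synthesis, and Cst3, a secreted protease inhibitor that binds Abeta. Insig1 had 135 and 194 normalized counts on the positive side, against 24.2 and 32.4 on the negative side (log2 fold change 2.38, SE 0.52, adjusted p = 0.000247, from the authors' deposited table). Srebf1 had 84.7 and 106 against 23.1 and 24.3 (1.85, SE 0.57, adjusted p = 0.0130 by DESeq2 in the authors' deposited table). Cst3 had 1125 and 2247 against 249 and 255 (2.63, SE 0.42, adjusted p = 5.73e-08, from the authors' deposited table). Cst3 is also strongly expressed by glia. The summed astrocyte markers and 4 of the 9 fibroblast and meningeal markers were higher on the same side as all 3 genes. The other 5 of those 9 lay below 0. The axonal mean of Cst3 lies between 500 and 1000 as well, so its recovered counts carry the same uncertainty. The part of other cell types in the values of these 3 genes was not tested.

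The relatives of Lrp1 and Sorl1 could mostly not be called. None of the 11 other lipoprotein receptors found had an adjusted p. Their median log2 fold change was 0.16, with 8 above 0, beside 0.15 and 57.7% above 0 over all axonal genes whose mean was 10 or more. The most abundant of them by mean were Lrp4, a receptor of the neuromuscular and Wnt pathways, at 0.14 (SE 0.65) and the Wnt co-receptor Lrp5 at 0.28 (SE 0.63) in the authors' deposited table. Among 4 relatives of Sorl1, Sorcs2 (0.53, SE 0.63, adjusted p = 0.599, DESeq2) was the one with an adjusted p, and Sorcs1 stood at 0.78 (SE 0.70). Reelin (Reln), the ligand of Lrp8 and Vldlr, had 34.8 and 51.6 normalized counts on the positive side, against 46.2 and 95.9 on the negative side. The authors' deposited table gives Reln -0.65 on the log2 scale (SE 0.59, adjusted p = 0.479, DESeq2), and Crk, an adaptor below these receptors, one of 0.72 (SE 0.59, adjusted p = 0.423). In the list of reelin signalling, adaptors and receptor turnover, 0 of the 2 genes with an adjusted p were called and 4 of 10 lay above 0, beside 43.7% of all axonal genes with reads.

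Other genes named as apolipoproteins, whatever their function, and lipases and transfer proteins were scarce: 4 of 19 had a mean of at least 10 in axons, and 0 had an adjusted p. Of the 19, 16 lay below 0 (median -0.95, beside -0.13 over all genes with reads). The 2 with an unadjusted p under 0.05 were Apob (-1.83, SE 0.91) and Apold1 (-2.32, SE 1.03), both on the negative side. In soma, 4 of the 19 were at 0 (Apoc3, Apof, Apoh and Lipc) and 4 had a mean of 10 or more. Apob and Apold1 had somatic means of 1.82 and 3.54. Genes read in axons alone numbered 5473. They held 2.80% and 1.25% of recovered axonal reads on the positive side, against 5.59% and 4.62% on the negative side. The part of such scarcity in the lean of these 19 genes was not tested. The phospholipid transfer protein Pltp stood at 0.13 (SE 0.78) and the lipase Lpl at -1.26 (SE 0.82) in the authors' deposited table. Of 13 other ABCA and ABCG transporters, Abca2, a lipid transporter of endosomes, was the one with an adjusted p (0.79, SE 0.49, adjusted p = 0.278 by DESeq2 in the authors' deposited table). Abca2 had 119 and 127 against 77.7 and 59.4 normalized counts, and Abca8a, the next in abundance, stood at 0.51 (SE 0.61). The list as a whole leaned the other way, with 9 of 13 below 0 and a median of -0.53, beside -0.13 over all genes with reads. For the 8 whose axonal mean was 10 or more the median was -0.65, beside 0.15 over all axonal genes that abundant. The 1 gene of this list with an unadjusted p under 0.05 was Abca12 (-2.13, SE 0.90, p = 0.0179 from the authors' deposited table by DESeq2). Abca12 was named after its value was seen, as were Apob and Apold1. Of those below 0, Abca4, Abca12, Abcg2, Abcg5 and Abcg8 had somatic means between 0.08 and 0.89. The others below 0, Abca5, Abca6, Abcg1 and Abcg4, had somatic means between 2.74 and 89.5. Whether scarcity in soma bears on this lean was not tested. In the list of sterol sensing and cholesterol handling, 2 of the 3 genes with an adjusted p were called, both on the positive side, where 8.78% of all genes with an adjusted p were. In that list 11 of 15 lay above 0 (median 0.69), beside 43.7% of all axonal genes with reads and 57.7% of those whose mean was 10 or more. Srebf2, the transcription factor of cholesterol synthesis, was not called there (0.88, SE 0.49, adjusted p = 0.214 by DESeq2 in the authors' deposited table). In the list of Abeta degradation, binding and uptake, Cst3 was the 1 gene with an adjusted p, and Ece1, an Abeta-degrading protease, stood at 0.80 (SE 0.62). In soma, 0 genes of these lists were called by DESeq2, and 0 had an unadjusted p under 0.05, beside 0% and 0.0105% of all genes with reads.

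The genes whose values followed Clu and Lrp1 most closely were taken from those with a symbol and a mean of at least 50 in both tables. Likeness was the root mean square difference of log2(normalized count + 1) after centring each gene on its own mean. Over all 8 libraries and 678 genes, the nearest to Lrp1 were the growth factor receptor Fgfr1 (0.21), the semaphorin receptor Plxnb2 (0.23) and the axonal kinesin Kif1a (0.24), while the median gene differed by 0.81. These 8 include the somatic libraries, in which Lrp1 differed more by depth than by side. Over the 4 axonal libraries and 735 genes the nearest to Lrp1 were others, Calr (0.076), Pebp1 (0.077) and Ash1l (0.094), with 0.46 for the median gene. For Clu the somatic reads were not recovered, so the 4 axonal libraries alone were used, a choice made after its values were seen. Over 735 genes, the nearest to Clu were the water channel Aqp4 (0.10), the membrane protein Mlc1 (0.12) and the gap junction protein Gja1 (0.14), where the median gene differed by 0.89. Aqp4 and Gja1 are on the list of astrocyte markers.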

How the data were processed

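The 10 genes and all gene lists were chosen with earlier results of these data known. The submitters' processing notes name DESeq2, SAMtools, TopHat2 and Trim Galore. Their versions, the build, the annotation, the counter and its strand setting are not given in the sources used, so reads of overlapping genes cannot be told apart. The 2 deposited tables, 1 per compartment, hold per the file headers a mean normalized count (a signal the authors made over 4 libraries), a log2 fold change and its standard error from the authors, a deposited Wald score, and deposited p-values with adjusted values. The score equals the log2 fold change over its standard error, checked on every gene. Deposited fold changes of low genes are drawn toward 0. Symbols came from the tables (18310 genes) or, through the Entrez identifier, from RefSeq GRCr8 (1837).

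A call is the authors' adjusted p under 0.05, with missing values left missing. The difference between compartments was a two-sided normal test of the 2 log2 fold changes, adjusted over all genes. It takes the axonal and somatic values as independent, and the positive side as the same treatment in both compartments. The test was run on simulated data drawn independently with the deposited standard errors, which cannot check these assumptions. Reads per library were recovered in Python 3.11.15 from the digits of each mean, as a sum of 4 whole counts times fixed library units. Below a mean of 100, 100% of axonal values had 1 solution and 0% of shifted decoys had one, against 10.3% of decoys at means from 500 to 1000. Means of 1000 or more were not solved. Recovered libraries cannot be matched to sample titles and enter no test, and log2 ratios of recovered sides used a pseudocount of 1. Reads per library limit the precision, and depth in all genes is unknown. Genes were named by rule: all 10, every called gene and the 2 most abundant of each list, fixed markers, and the 3 nearest genes.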

Additional observations from a re-analysis of the deposited data

How the results depend on the processing

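The number of axonal genes called fell from 304 to 81 when p-values were adjusted over genes whose mean was 10 or more, and to 52 over every gene with a p-value. Those on the positive side fell from 116 to 71 and 50, and to 67 after centring on genes well expressed in soma. Under each of these 3 settings 0 of the 10 genes were called, against 2 as deposited. More genes enter the first 2 adjustments, and centring moves every axonal gene by the same 0.44 on the log2 scale. For the difference between compartments, 6 genes passed as deposited and 0 after centring both tables. The number of the 10 genes with a higher share in axons was 3, but 1 without the 20 most abundant identifiers, and 5 of 8 by median RPM, an alternative chosen after seeing the data; the cause was not tested. The median log2 fold change of the pathway genes was -0.11, and 0.15 for those with a mean of at least 10. Leaving out each library in turn kept the sign of the log2 ratio of recovered sides for 7 of 10 genes in axons (not for Apod, Apoe and Lrp8) and for 2 of 8 in soma. Tests without a library could not be made from the deposited tables. No paired analysis was possible because the tables hold no column per sample. With 2 samples per group and 231854 to 425420 recovered reads per axonal library, 6 of the 10 genes had too few reads for an adjusted p.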

Other observations

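Values of Abcg1, a cholesterol exporter related to Abca1, were looked at after they were seen. In axons its positive-side libraries held 6.80 and 7.83 normalized counts and its negative-side ones 5.25 and 29.7, so that, as for Abca1, library 2 of the negative side alone stood above the others. The log2 fold change of Abcg1 in the authors' deposited table was -0.94 (SE 0.91), without an adjusted p. Csf1r, the microglial marker with the highest axonal mean, had 12.1 and 7.83 against 30.5 and 56.7 normalized counts in the same libraries. Of the 12 microglial markers, 10 lay below 0 and 2 above it. The latter were Aif1 (1.05) and Trem2 (0.27), each with 0 normalized counts in library 2 of the negative side. The part of microglial RNA in the Abcg1 value was not tested. In soma, the positive-side libraries held 95.6 and 97.7 normalized counts of Abcg1, and the negative-side ones 105 and 59.4. Npc2, a lysosomal cholesterol carrier also named after its values were seen, stood at 59.0 and 66.5 normalized counts in axons on the positive side, against 12.6 and 17.6. Its log2 fold change was 1.85 (SE 0.65, unadjusted p = 0.00418) in the authors' deposited table, which gives it no adjusted p.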
